A study of Mus musculus with 6 samples.

Results

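The genes described here are those of the Wnt ligands, their receptors and co-receptors, the R-spondins with their LGR receptors, the secreted Wnt inhibitors, and the pathway genes *Axin2*, *Lef1* and *Tcf7*. They were taken by gene symbol from the protein-coding genes of the table, which gave 45 genes of 21999 in all. Of these, 30 passed edgeR's filter on low counts and were tested, and 15 did not. RNA was sequenced from untreated lung microvascular endothelial cells of SV129/B6 mice. There were 3 isolations from *Ptprz1*+/+ mice (wild type) and 3 from mice labelled *Ptprz1*-/-, in which the gene of the receptor phosphatase PTPRZ1 was disrupted. Lungs of 2 to 5 mice aged 3 to 8 weeks went into an isolation, and the cells were grown with an endothelial growth supplement to confluence and then taken with beads against CD31, a surface protein of endothelial cells. Because animals were pooled, the spread between replicates is that between isolations and not between single mice.

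Wnt proteins are lipid-modified ligands that bind Frizzled receptors together with the co-receptors LRP5 or LRP6. In the canonical branch this stops the breakdown of beta-catenin, which then acts with TCF and LEF factors on target genes such as *Axin2*. R-spondins, through LGR receptors, keep Frizzled receptors at the cell surface, whereas SFRP, WIF1 and DKK proteins hold the ligands or the co-receptors off. In blood vessels the pathway is known for its part in vessel growth and barrier formation, and in lung stroma for its exchange with the epithelium.

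Between 14496881 and 17709663 reads were counted per library. *Ptprz1* itself was read 197 to 1837 times in the *Ptprz1*+/+ libraries and 895 to 1320 times in the others, so its reads did not tell the genotypes apart. Those libraries are therefore called by their label, and each direction below rests on the labels. The 12 endothelial marker genes summed to between 38.4 and 589 CPM (counts scaled to library size) in the *Ptprz1*+/+ libraries and to between 23.1 and 203 in those labelled *Ptprz1*-/-, with the highest sum in isolation 3 of both. The 10 fibroblast genes summed to between 11779 and 28015 CPM over the 6 libraries, more than the endothelial genes in each. The endothelial *Cdh5* ranged from 3.60 to 199 CPM, and the fibroblast collagen *Col1a1* from 2494 to 5992 CPM. The 6 mesothelial genes summed to between 55.8 and 217 CPM in the *Ptprz1*+/+ libraries and to 1379.5, 115 and 279 in those labelled *Ptprz1*-/-. Smooth muscle and pericyte genes (8) ranged from 402 to 4077 CPM, leukocyte genes (7) from 24.9 to 71.4, and epithelial genes (8) from 0.961 to 3.78. In such bulk samples, fewer cells of a type and less RNA per cell cannot be told apart.

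Among the 30 genes tested, 0 passed an adjusted threshold of 0.05 between the genotypes (edgeR, quasi-likelihood F-test), and across all 13609 genes 0% did. At an unadjusted p under 0.05 there was 1 gene, *Rspo1*, which is 3.33% of the 30, where 2.69% of all genes tested lay under that value. In 1 gene, *Wnt9a*, the libraries labelled *Ptprz1*-/- all lay above the *Ptprz1*+/+ libraries, which is again 3.33% of the 30, against 7.28% of all genes in which the groups did not overlap in one or the other direction. The median log2 fold change of the 30 genes was 0.086, with 19 above 0 and 11 below, and that of all genes was -0.0047.

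The Wnt genes varied widely between isolations. Within a genotype their median standard deviation was 0.78 on the log2 scale, and that of all genes tested was 0.28. This spread was larger than the genotype difference in 26 of the 30 genes, and likewise in most genes of the table (9672 of 13609). From the lowest to the highest library, 17 of the 30 genes (56.7%) spanned more than 4-fold, as did 2093 of all genes (15.4%). The median level of the 30 genes was 17.6 CPM and that of all genes 23.8 CPM. The widest span was that of *Rspo2* at 25.7-fold and the narrowest that of *Fzd7* at 1.20-fold.

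**Figure D1:**
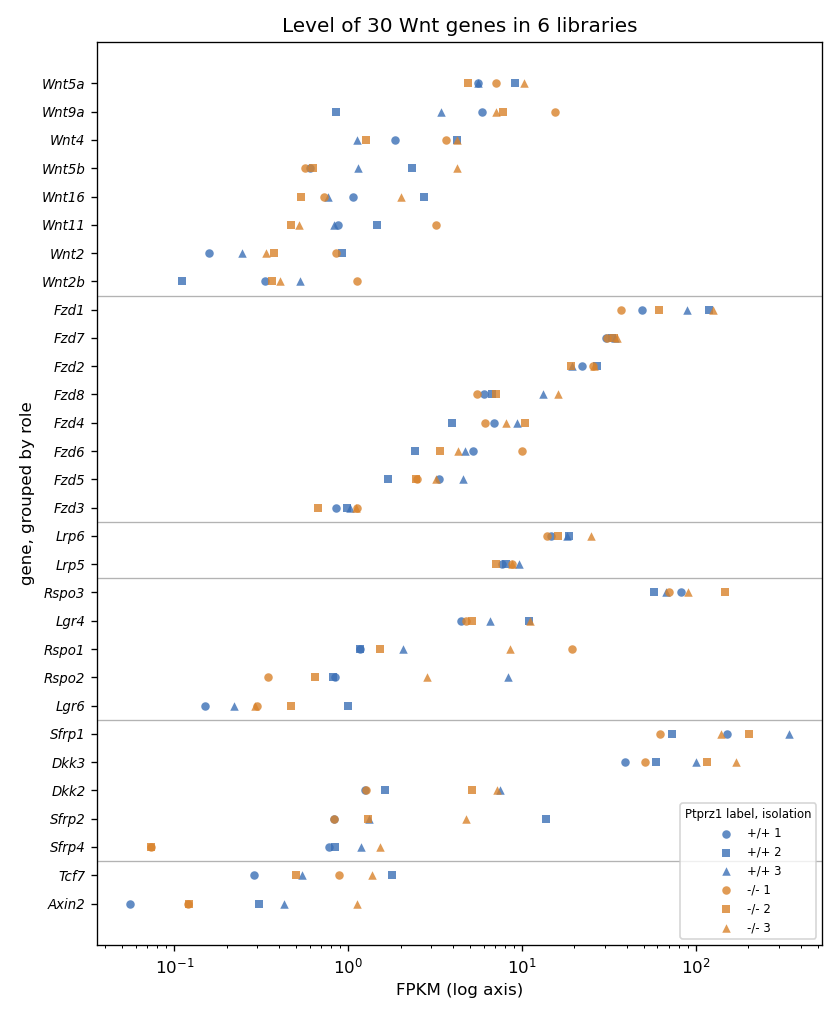
FPKM (reads scaled to gene length and library total, log axis) of the 30 Wnt genes tested, grouped by role, with 1 point for each of the 6 libraries; colour gives the *Ptprz1* label and shape the isolation number. *Fzd7* and *Lrp5* lie in tight clusters, whereas *Rspo1*, *Rspo2* and *Axin2* spread widely (16.5-fold, 25.7-fold and 18.9-fold in CPM).

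The promoters of 4 genes are shown, chosen after their values were seen. *Rspo1* and *Wnt9a* are the genes named above. *Wnt11* and *Wnt2b*, whose groups overlapped, share with them only that their highest level was in the library labelled *Ptprz1*-/- replicate 1, which also held for *Fzd6* and *Fzd3*. Each run gives the 250 bases before the start in RefSeq on GRCm38.p6, 5′ to 3′ on the strand of the gene. Capitals mark CTTTGAT or its reverse complement ATCAAAG, the core bound by TCF and LEF factors. The windows are chr4:124986180-124986429 (plus strand) for *Rspo1*, chr11:59306680-59306929 (plus strand) for *Wnt9a*, chr7:98834862-98835111 (plus strand) for *Wnt11* and chr3:104961710-104961959 (minus strand) for *Wnt2b*.
Rspo1: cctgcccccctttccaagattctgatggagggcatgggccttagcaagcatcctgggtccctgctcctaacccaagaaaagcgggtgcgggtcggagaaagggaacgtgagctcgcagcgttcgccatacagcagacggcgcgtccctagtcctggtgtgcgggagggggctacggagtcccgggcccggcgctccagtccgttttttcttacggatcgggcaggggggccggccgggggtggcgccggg
Wnt9a: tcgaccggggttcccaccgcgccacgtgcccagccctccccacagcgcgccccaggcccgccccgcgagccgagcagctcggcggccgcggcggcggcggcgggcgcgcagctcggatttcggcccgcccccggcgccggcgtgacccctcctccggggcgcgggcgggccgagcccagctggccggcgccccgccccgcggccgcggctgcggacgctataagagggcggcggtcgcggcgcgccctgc
Wnt11: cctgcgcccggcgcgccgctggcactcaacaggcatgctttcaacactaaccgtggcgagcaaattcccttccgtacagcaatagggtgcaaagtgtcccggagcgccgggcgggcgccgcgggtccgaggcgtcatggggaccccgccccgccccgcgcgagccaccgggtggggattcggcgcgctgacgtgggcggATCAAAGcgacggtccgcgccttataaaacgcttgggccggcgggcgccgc
Wnt2b: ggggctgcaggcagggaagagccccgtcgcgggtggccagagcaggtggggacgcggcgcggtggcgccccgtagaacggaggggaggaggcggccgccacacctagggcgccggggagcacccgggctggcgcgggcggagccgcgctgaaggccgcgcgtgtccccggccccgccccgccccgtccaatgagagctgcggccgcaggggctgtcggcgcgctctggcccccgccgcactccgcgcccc

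The motif stood once in the *Wnt11* window shown, not in a second RefSeq window of *Wnt11* and not in the other 3 printed. Over both strands it was in 3.21% of the 32851 promoter windows of this length, and in 2 of the 38 windows that matched 31 of the 45 genes, those of *Wnt11* and *Wnt5b*. The GC content of the 4 windows was 66.8% for *Rspo1*, 84.4% for *Wnt9a*, 70.8% for *Wnt11* and 80.8% for *Wnt2b*. The median was 66.4% over the 38 windows of the Wnt genes and 52.4% over all windows.

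Of the 16 ligand genes, 8 were tested. *Wnt5a*, whose product signals mostly without beta-catenin, had the highest mean level per length at 7.08 FPKM, followed by *Wnt9a* at 6.76 and *Wnt4* at 2.71, and the ranges of *Wnt5a* and *Wnt9a* over the libraries overlapped (4.86 to 10.3 and 0.85 to 15.5 FPKM). The means of *Wnt5a* and *Wnt9a* were 6.75 and 3.39 FPKM in wild type and 7.41 and 10.1 FPKM under the *Ptprz1*-/- label. Their order did not follow the label in each library. *Wnt9a* was above *Wnt5a* in wild-type replicate 1 (5.89 against 5.58 FPKM). It was below *Wnt5a* in the library labelled *Ptprz1*-/- replicate 3 (7.09 against 10.3 FPKM). The other 5 ligands tested, *Wnt5b*, *Wnt16*, *Wnt11*, *Wnt2* and *Wnt2b*, had means between 0.478 and 1.58 FPKM. Summed over all ligands, the level was between 13.9 and 33.0 FPKM per library, below the sum of the Frizzled genes (118 to 219 FPKM) in each of the 6.

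*Wnt9a* (chromosome 11 of GRCm38 from 59306928 to 59333552), a ligand known from joint development, gave 19.9, 2.75 and 11.8 CPM in wild-type isolations 1, 2 and 3. Under the *Ptprz1*-/- label it gave 49.9, 27.2 and 22.5 CPM. The groups did not overlap, and the lowest value of all, from 50 reads, was that of *Ptprz1*+/+ replicate 2. The means were 11.5 ± 8.60 and 33.2 ± 14.6 CPM (SD, n = 3 each), and p was 0.10 in an exact permutation test (two-sided), the smallest that 3 libraries against 3 allow. The log2 fold change was 1.53 (standard error 0.68), with a Benjamini-Hochberg adjusted p of 1.00 by edgeR. It was 1.07 without wild-type replicate 2 and 2.20 without wild-type replicate 1. The mesothelial sum and the smooth muscle and pericyte sum were both highest in the library labelled *Ptprz1*-/- replicate 1 (1379.5 and 4077 CPM) and lowest in wild-type replicate 2 (55.8 and 402 CPM). In wild-type replicates 1 and 3 they were 217 and 3735 CPM and 90.7 and 1289 CPM. In replicates 2 and 3 of the *Ptprz1*-/- label they were 115 and 834 CPM and 279 and 895 CPM. *Wnt9a* was lower in wild-type replicate 1 than in either of these. The part of such cells in the *Wnt9a* level was not tested.

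*Wnt11* (chromosome 7 from 98835112 to 98855195), a ligand of the non-canonical branch in heart and kidney development, gave 3.08, 4.95 and 2.97 CPM in the wild-type isolations, against 10.6, 1.72 and 1.72 CPM under the *Ptprz1*-/- label. *Wnt2b*, a canonical ligand of lung mesoderm, was at 1.21, 0.385 and 1.96 CPM and at 3.91, 1.37 and 1.39 CPM in the same order. In both genes the library labelled *Ptprz1*-/- replicate 1 was highest and the groups overlapped. This library also had the highest sums of the mesothelial markers (1379.5 CPM, against at most 279 in the other 5) and of the smooth muscle and pericyte markers (4077 CPM, against at most 3735). In the library labelled *Ptprz1*-/- replicate 3, whose mesothelial sum was the next highest, *Wnt11* was near its lowest level at 1.72 CPM. The part of these cells in the levels of the 2 ligands was not tested.

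*Wnt5a* gave 39.9, 62.1 and 40.4 CPM in the wild-type isolations, against 47.9, 36.0 and 69.2 CPM under the *Ptprz1*-/- label, and its log2 fold change was 0.11 (standard error 0.29). *Wnt4*, a ligand of kidney and female reproductive tract development, was at 7.91, 17.2 and 4.86 CPM and at 14.8, 5.63 and 16.9 CPM. For both, the groups overlapped widely, with high and low libraries on each side. *Wnt5b*, *Wnt16* and *Wnt2* had log2 fold changes of 0.38 (standard error 0.88), -0.50 (0.65) and 0.22 (0.74).

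**Figure D2:**
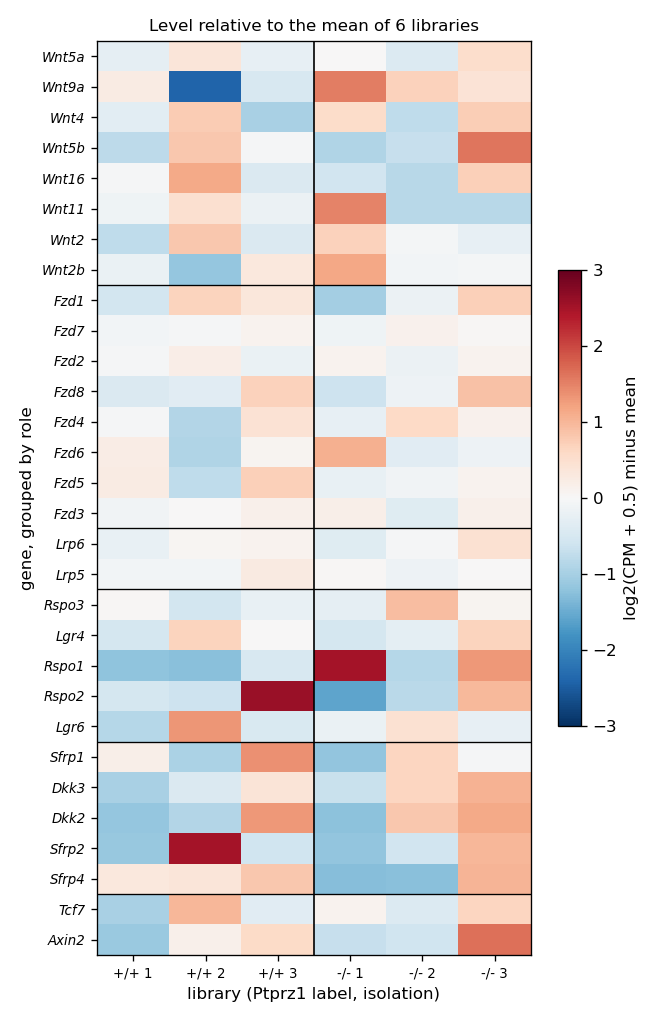
log2(CPM + 0.5) of the 30 Wnt genes minus each gene's mean over the 6 libraries, with the *Ptprz1*+/+ libraries left and those labelled *Ptprz1*-/- right of the vertical line. Single libraries stand out within a genotype, such as *Ptprz1*+/+ replicate 2 for *Sfrp2* (26.8 CPM) and replicate 3 for *Rspo2* (28.6 CPM).

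Among the Frizzled receptors, 8 of 9 genes were tested and 0 passed the adjusted threshold. Their log2 fold changes lay between -0.27 and 0.47. *Fzd1* was the most abundant per length at 80.0 FPKM, followed by *Fzd7* at 32.8 and *Fzd2* at 23.2. The ranges of the 3 over the libraries were 36.9 to 125, 30.2 to 35.1 and 19.1 to 27.1 FPKM, so that *Fzd1* lay above *Fzd7* and *Fzd7* above *Fzd2* in range.

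*Fzd1* gave 207, 483 and 385 CPM in the wild-type isolations, against 149, 269 and 497 CPM under the *Ptprz1*-/- label. It was lowest in isolation 1 of both genotypes. *Fzd7* was at 139.5, 145 and 159 CPM and at 135, 162 and 153 CPM, and *Fzd2* at 82.6, 96.6 and 72.9 CPM and at 90.1, 74.1 and 91.0 CPM. The log2 fold changes of *Fzd7* and *Fzd2* were both 0.02 (standard errors 0.13 and 0.15), the most closely bounded values among the Frizzled genes. *Fzd4*, also the receptor of Norrin in retinal vessels, was at 25.8, 14.1 and 35.8 CPM and at 22.0, 40.4 and 28.6 CPM. *Fzd8* had its highest levels in isolation 3 of both genotypes, at 45.6 and 51.7 CPM, and lay between 17.9 and 25.1 CPM in the other 4 libraries. *Fzd6*, *Fzd5* and *Fzd3* had means of 4.99, 2.95 and 0.961 FPKM.

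The co-receptor genes *Lrp6* and *Lrp5* were at means of 17.7 and 8.32 FPKM, and the lowest *Lrp6* library (13.8 FPKM) was above the highest *Lrp5* library (9.66 FPKM). *Lrp6* gave 139.8, 170.3 and 174 CPM in the wild-type isolations, against 125, 159 and 223 CPM under the *Ptprz1*-/- label. *Lrp5* was at 69.3, 69.8 and 88.8 CPM and at 75.2, 66.7 and 74.6 CPM. The groups overlapped for both, with log2 fold changes of 0.07 (standard error 0.23) and -0.07 (standard error 0.14).

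Of the R-spondin and LGR genes, 5 of 7 were tested. *Rspo3*, a ligand known in vascular development, was the most abundant at 85.5 FPKM, and *Lgr4* was the LGR gene with the highest level at 7.16 FPKM. *Rspo3* gave 200.3, 134 and 167 CPM in the wild-type isolations, against 161, 370.5 and 206 CPM under the *Ptprz1*-/- label. Its highest value stood alone in replicate 2, and the log2 fold change of 0.56 (standard error 0.33) was 0.14 without that library.

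*Rspo1* (chromosome 4 from 124986430 to 125009099) encodes the R-spondin best known from sex determination. It gave 2.17, 2.09 and 3.91 CPM in the wild-type isolations, against 34.5, 2.95 and 14.9 CPM under the *Ptprz1*-/- label. Of the latter, replicates 1 and 3 lay above each *Ptprz1*+/+ library and replicate 2 lay among them. The means were 2.73 ± 1.03 and 17.4 ± 15.9 CPM (SD, n = 3 each), with p = 0.20 in the exact two-sided permutation test. The log2 fold change was 2.68 (standard error 0.84), and edgeR put the unadjusted p at 0.0172, or 1.00 once adjusted over all genes. It was 1.71 without the library labelled *Ptprz1*-/- replicate 1. Without that library, or without wild-type replicate 1 or 2, *Rspo1* no longer had an unadjusted p under 0.05.

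The mesothelial sum was 1379.5 CPM in the library labelled *Ptprz1*-/- replicate 1 and 279 CPM in replicate 3, and between 55.8 and 217 CPM in the other 4, of which *Ptprz1*+/+ replicate 1 was highest. In replicate 3 its largest single part was *Lrrn4* (140.2 of 279 CPM). The genes *Msln*, *Upk3b*, *Upk1b* and *Krt19* were lower in that library (6.01, 48.5, 42.3 and 0.793 CPM) than in wild-type replicate 1 (26.9, 57.5, 56.1 and 7.73 CPM). *Lrrn4* and *Wt1* were higher in that library (140.2 and 41.4 CPM) than in wild-type replicate 1 (42.3 and 26.5 CPM). *Rspo1* was at 2.17 CPM in wild-type replicate 1. None of the 6 was at 0 in any library, and their part in the *Rspo1* level was not tested.

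*Rspo2* gave 2.84, 2.64 and 28.6 CPM in the wild-type isolations, against 1.12, 2.26 and 8.98 CPM under the *Ptprz1*-/- label. Isolation 3 was highest within each genotype, as it was for the endothelial markers, whose sums were 589 and 203 CPM in these 2 libraries and between 23.1 and 38.8 CPM in the other 4. The fibroblast sum was also highest there, at 26396 and 28015 CPM against 11779 to 18957 in the other 4. *Dkk2*, which encodes an inhibitor that binds LRP6, was also highest in these libraries at 28.4 and 25.4 CPM, but it was at 20.1 CPM in the library labelled *Ptprz1*-/- replicate 2, where *Pecam1* (CD31) was at 1.51 CPM. *Dkk2* was between 4.53 and 5.88 CPM in the remaining 3. Whether the endothelial or fibroblast share of a culture bears on *Rspo2*, *Dkk2* or *Fzd8* was not tested. The log2 fold change of *Rspo2* was -1.46 (standard error 1.18) and turned to 0.59 without *Ptprz1*+/+ replicate 3.

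**Figure D3:**
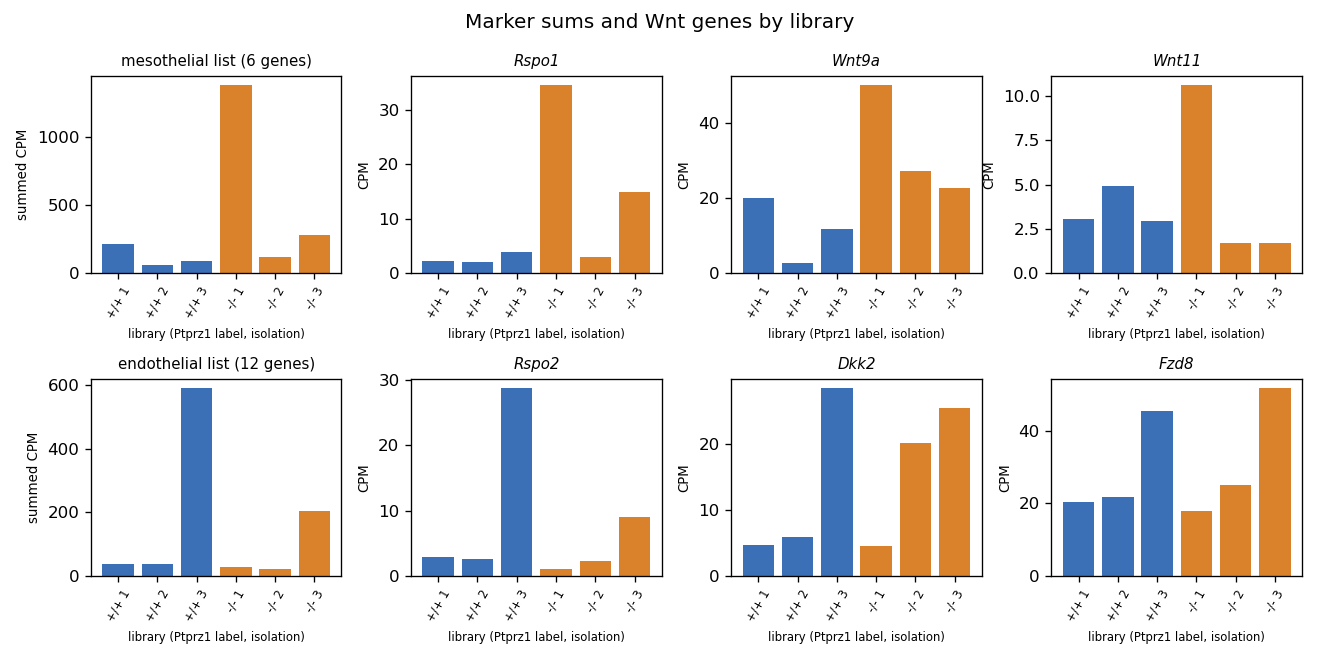
Summed CPM of the mesothelial list (top left) and the endothelial list (bottom left), and CPM of 3 Wnt genes beside each, as 1 bar per library (blue *Ptprz1*+/+, orange labelled *Ptprz1*-/-). The tallest mesothelial, *Rspo1*, *Wnt9a* and *Wnt11* bars are those of the library labelled *Ptprz1*-/- replicate 1. The endothelial sum, *Rspo2*, *Dkk2* and *Fzd8* are highest in isolation 3 of the 2 genotypes. The fibroblast sum, not drawn, was also highest there (26396 and 28015 CPM). No link between the genes and the lists was tested.

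*Lgr4*, a receptor for R-spondins, gave 23.1, 54.1 and 34.3 CPM in the wild-type isolations, against 23.2, 27.6 and 53.5 CPM under the *Ptprz1*-/- label. The groups spanned nearly the same range, and the log2 fold change was -0.10 (standard error 0.42). *Lgr6* was highest at 6.49 CPM in *Ptprz1*+/+ replicate 2 and lay between 1.03 and 3.29 CPM in the other 5 libraries.

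Among the secreted inhibitors, *Sfrp1* had the highest mean at 161 FPKM, followed by *Dkk3* at 89.0 FPKM. Their ranges over the libraries overlapped (61.8 to 343 and 39.0 to 170 FPKM). *Sfrp1* was the most abundant Wnt gene in 3 of the 6 libraries. *Fzd1* was above it in wild-type replicate 2 (119 against 72.9 FPKM), *Rspo3* in the library labelled *Ptprz1*-/- replicate 1 (69.5 against 61.8) and *Dkk3* in replicate 3 of that label (170 against 140.1). *Sfrp1*, whose product binds Wnt ligands outside the cell, gave 671, 310.5 and 1549.8 CPM in the wild-type isolations, against 261, 929 and 586 CPM under the *Ptprz1*-/- label. It was highest in *Ptprz1*+/+ replicate 3, and the log2 fold change of -0.51 (standard error 0.67) turned to 0.27 without that library.

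*Dkk3*, a divergent member of the Dickkopf family, gave 134, 193 and 345 CPM in the wild-type isolations, against 166, 409 and 546 CPM under the *Ptprz1*-/- label. The groups overlapped, and the highest and second highest values carried the *Ptprz1*-/- label. The log2 fold change was 0.74 (standard error 0.51), and p was 0.30 in the exact two-sided permutation test.

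*Sfrp2* gave 1.69, 26.8 and 2.71 CPM in the wild-type isolations, against 1.61, 2.75 and 9.12 CPM under the *Ptprz1*-/- label. Its log2 fold change of -1.21 (standard error 1.16) turned to 1.02 without *Ptprz1*+/+ replicate 2, which alone held 487 reads. *Sfrp4* was at 1.39, 1.43 and 2.15 CPM and at 0.124, 0.137 and 2.58 CPM, from 2, 2 and 39 reads in the libraries labelled *Ptprz1*-/-. These 3 libraries thus held both the lowest values and the highest, and the log2 fold change was -0.80 (standard error 1.07).

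*Axin2*, the feedback target that many studies use to read canonical signalling, was low at a mean of 0.358 FPKM. It gave 0.242, 1.26 and 1.89 CPM in the wild-type isolations, against 0.496, 0.549 and 4.56 CPM under the *Ptprz1*-/- label, from 4 to 69 reads. Isolation 3 was highest within each genotype. The log2 fold change of 0.72 (standard error 1.06) turned to -1.11 without the library labelled *Ptprz1*-/- replicate 3. *Tcf7*, a nuclear partner of beta-catenin, was at 0.725, 4.29 and 1.39 CPM and at 2.11, 1.30 and 3.24 CPM, with a log2 fold change of 0.05 (standard error 0.70). *Lef1*, the other such partner among these genes, was not tested, with 0, 13 and 5 reads and 1, 0 and 3 reads.

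**Figure D4:**
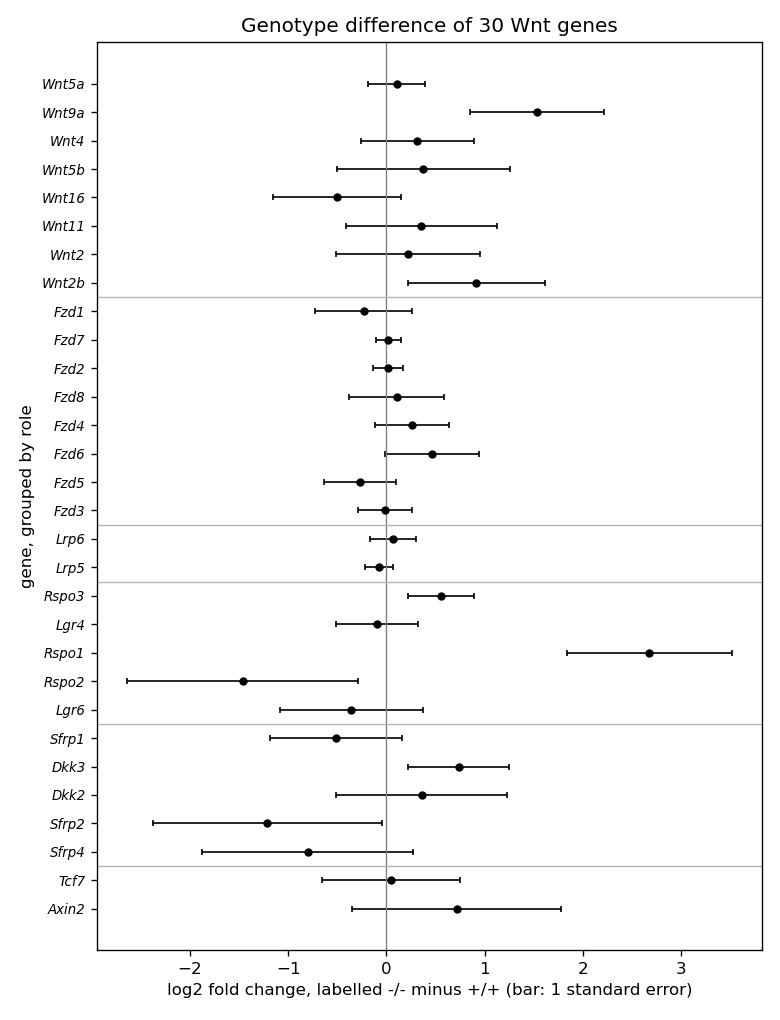
log2 fold change of the 30 Wnt genes tested (labelled *Ptprz1*-/- minus *Ptprz1*+/+, points) with 1 standard error (bars), grouped by role, from edgeR's quasi-likelihood fit. *Rspo1* at 2.68 and *Wnt9a* at 1.53 lie farthest above 0 and *Rspo2* at -1.46 farthest below, and 0 of the 30 passed the adjusted threshold.

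The 15 genes not tested were read at most 13 times in any library. They were the ligands *Wnt1*, *Wnt3*, *Wnt6*, *Wnt7a*, *Wnt8b*, *Wnt9b*, *Wnt10a* and *Wnt10b*, the receptors *Fzd9* and *Lgr5*, the inhibitors *Dkk1*, *Sfrp5* and *Wif1*, and *Lef1* and *Rspo4*. *Wnt1*, *Wnt7a*, *Wnt8b* and *Wnt9b* had 1 read each in all 6 libraries together. *Rspo4* had 11 reads in *Ptprz1*+/+ replicate 2 and 0 in each other library, where a count of 0 allows up to 3 reads, or at most 0.206 CPM in the shallowest scaled library. The highest *Lgr5* count (10) and *Lef1* count (13) were in the same library as those reads of *Rspo4*. *Lgr6*, *Sfrp2*, *Tcf7*, *Wnt4* and *Wnt16* had their highest levels there too, among 8 of the 30 tested genes that did. The library labelled *Ptprz1*-/- replicate 3 was likewise highest for 8 genes, and *Ptprz1*+/+ replicate 2 was lowest for 7.

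The rest of the pathway was read from a list of 65 genes, of which 57 were tested. At the adjusted threshold 0 passed in either direction, and 0 had an unadjusted p under 0.05 in edgeR's quasi-likelihood test. Their median log2 fold change was -0.057, with 25 above 0 and 32 below. *Ctnnb1*, which encodes beta-catenin, averaged 789 ± 210 CPM in wild type and 746 ± 15.3 CPM under the *Ptprz1*-/- label (SD, 3 libraries each). *Gsk3b*, a kinase that marks beta-catenin for breakdown, was at 199 ± 37.4 and 217 ± 28.5 CPM, and *Tcf7l2*, a TCF factor, at 25.1 ± 4.77 and 22.8 ± 1.85 CPM, in the same order.

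*Wls*, needed for the release of Wnt ligands, was at 353 ± 92.4 and 380.1 ± 53.1 CPM, and *Frzb*, a further secreted inhibitor, at 33.5 ± 14.3 and 24.0 ± 6.72 CPM. The target genes *Ccnd1* and *Myc*, which other pathways also drive, were at 83.2 ± 43.7 and 59.4 ± 35.7 CPM and at 40.5 ± 22.6 and 51.5 ± 19.6 CPM. For each of these genes the groups overlapped. The groups did not overlap in 1 of the 57 genes (1.75%), a lower share than the 7.28% of all genes. It was *Celsr3*, a cadherin of planar polarity, with 1.39, 2.86 and 2.08 CPM in wild type and 1.30, 1.24 and 1.25 CPM under the *Ptprz1*-/- label. Its log2 fold change was -0.74 (standard error 0.36), with p = 0.10 in the exact two-sided permutation test.

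Exons of 7 of the 30 tested genes overlap a gene on the opposite strand in GENCODE M21. They are *Fzd5* (1233 bases), *Rspo3* (404), *Wnt11* (364), *Wnt5a* (358), *Sfrp2* (347), *Axin2* (209) and *Fzd6* (152). The use of strand in counting is not given in the sources used here, so reads of these partners cannot be told apart from those of the Wnt genes. *Rspo1* and *Wnt9a* had no such overlap. Transcripts of *Fzd1*, *Fzd2* and *Fzd7* aligned to each other over 1519 to 1592 bases. In this alignment, not refined base by base, 14.3% to 25.3% of them counted as matching, which is not the share of identical bases. Whether reads were shared among these 3 genes was not tested.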

How the data were processed

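Total RNA of 6 libraries, 3 per genotype, was measured; condition and replicate number were taken from the sample titles. The authors deposited whole-number read counts per gene, not normalized, and FPKM values, which equal the count scaled by gene length and library total. The submitters' processing notes name STAR, TopHat, HTSeq, DESeq2, edgeR and GRCm38 (mm10), without roles. The table also holds the authors' mean per genotype, fold changes and p-values, and 3 shorter lists hold the genes they called; none of these was used. FPKM compares levels between genes, and CPM compares libraries.

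TMM factors scaled the counts, and genotype was the only term of the quasi-likelihood fit (edgeR 4.0.16 under R 4.3.3, with filterByExpr, glmQLFit and glmQLFTest) over 13609 genes. Adjusted p-values (Benjamini-Hochberg) were held against 0.05, and each standard error was derived from the fold change and its F value. The functions were tested on simulated counts. For single genes an exact two-sided permutation test was run, whose smallest p is 0.10. Transcripts of the Wnt genes, aligned to all GENCODE M21 transcripts with minimap2 2.31, met other protein-coding genes only among *Fzd1*, *Fzd2* and *Fzd7*. All 45 genes matched their GRCm38 position there.

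Alternatives were DESeq2 1.42.0, upper-quartile scaling, no filter, at least 10 counts in every library, the replicate number as a block, each library left out, and, added after the data were examined, both isolations numbered 3 left out. The Wnt genes, the pathway list and the marker lists were chosen with earlier results of these data known. Values in every library are given for the 3 genes of each role with the highest mean FPKM. They are also given for genes with an unadjusted p under 0.05 or groups that do not overlap, and for the 3 largest fold changes each way. *Wnt11*, *Fzd4*, *Fzd8*, *Lgr5*, *Lgr6*, *Rspo4* and the markers *Lrrn4*, *Upk3b*, *Upk1b*, *Krt19* and *Wt1* were added after their values were seen. Of the pathway list, 7 genes were set beforehand and *Celsr3* came by the same rule. *Wnt3a*, *Wnt7b*, *Wnt8a*, *Fzd10* and *Dkk4*, and of the pathway list *Sost* and *Sostdc1*, were not analysed here.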

Additional observations from a re-analysis of the deposited data

How the results depend on the processing

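With 3 isolations per genotype and a wide spread between them, differences of the size seen here could not be called for most Wnt genes, and genes such as *Axin2* rest on few reads. Under each alternative 0 Wnt genes and 0 genes of the pathway list passed the adjusted threshold. The number over all genes was 0 except with DESeq2 (30, of which 10 higher and 20 lower). Of the genes followed by name, *Rspo2* and *Sfrp2* were given no p-value by DESeq2, so they could not pass there. Wnt genes at an unadjusted p under 0.05 numbered 1 in the fit reported, 2 with DESeq2 (*Rspo1* and *Wnt9a*), 2 with no filter on low counts, 2 with both isolations numbered 3 left out (*Sfrp4* and *Wnt16*), and 1 to 3 with each library left out. Over all genes the shares in these fits were 2.69%, 3.64%, 2.51%, 1.88% and, with each library left out, 2.23% to 4.84%. *Rspo1* was among them in 3 of those 6 fits. With both isolations numbered 3 left out, 6 of 29 genes had groups that did not overlap. With each library left out 1 to 4 of 30 did. Such numbers rise with fewer libraries, for any gene. The share over all genes was not counted in these fits, so these counts show nothing particular to the Wnt genes. The median log2 fold change of the Wnt genes ranged from -0.14 to 0.23 with each library left out.

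The sample titles do not say whether same-numbered isolations were made together. Same-numbered libraries of the 2 genotypes deviated from their group means with correlations across genes of 0.46, -0.06 and 0.53 for numbers 1, 2 and 3. The libraries numbered 1 correlated best with each other, as did those numbered 3. Those numbered 2 correlated with no library of the other genotype above 0.085. With the replicate block 4 Wnt genes had an unadjusted p under 0.05 (*Dkk3*, *Rspo1*, *Rspo2* and *Wnt9a*), with 5.07% of all genes under that value in the same fit, 0 passed after adjustment, and the median was 0.029.

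Of 20 genes followed by name, 14 turned sign in at least 1 alternative, and the cause was not tested. With each library left out, the log2 fold change ranged from -1.11 to 1.29 for *Axin2*, -0.088 to 1.65 for *Dkk2*, -0.78 to 0.10 for *Fzd1*, -0.075 to 0.13 for *Fzd2*, -0.041 to 0.090 for *Fzd7*, -0.55 to 0.28 for *Lgr4* and -0.13 to 0.054 for *Lrp5*. It ranged from -0.19 to 0.25 for *Lrp6*, -2.76 to 0.59 for *Rspo2*, -0.99 to 0.27 for *Sfrp1*, -2.25 to 1.02 for *Sfrp2*, -0.36 to 1.06 for *Tcf7*, -0.012 to 0.96 for *Wnt4* and -0.18 to 0.35 for *Wnt5a*. With both isolations numbered 3 left out the sign turned for *Fzd2* (-0.13), *Lrp6* (-0.13), *Lrp5* (0.028), *Tcf7* (-0.56), *Sfrp1* (0.28), *Wnt5a* (-0.28) and *Wnt4* (-0.30). *Dkk3* (0.35 to 1.19), *Rspo1* (1.71 to 3.18), *Rspo3* (0.14 to 0.79), *Sfrp4* (-3.59 to -0.27), *Wnt2b* (0.23 to 1.48) and *Wnt9a* (1.07 to 2.20) kept their sign under each alternative that tested them.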
